A study of Mus musculus with 267 samples.

Results

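The change of H3K27ac, the acetylation of lysine 27 on histone H3, after 24 h of interleukin-4 (IL-4) was measured by ChIP-seq in bone marrow-derived macrophages (BMDMs) of SPRET/EiJ (SPRET) mice. All 54755 open chromatin regions of the SPRET table were used, of 305626 regions in the tables of the 5 strains, and the 4 H3K27ac libraries compared were 2 of basal cells and 2 of cells given IL-4, of 267 samples in the series. The study compared macrophages of SPRET, C57BL/6J (C57), BALB/cJ (BALB), NOD/ShiLtJ (NOD) and PWK/PhJ (PWK) mice before and after IL-4, with ChIP-seq of histone marks, RNA polymerase II (Pol II) and transcription factors. In both SPRET groups the cells came from female mice aged 8 to 12 weeks, per the study's methods, and were grown from bone marrow with the growth factor M-CSF. The labels name no transgene or deletion for them. The basal cells were left untreated, and the other cells received recombinant mouse IL-4 at 20 ng/mL for 24 h. The ChIP was made in biological replicates, without a statement of which animals they came from, so p-values measure the spread between these libraries.

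H3K27ac is laid down by the acetyltransferases CBP and p300 and marks promoters and enhancers that are active. IL-4 signals through its receptor and JAK kinases to the transcription factor STAT6, and drives macrophages to the alternatively activated state, with arginine-metabolizing enzymes, lectin receptors and lipid-handling genes. EGR2 and PPARg are transcription factors that act in this state, while PU1 and CEBPb are lineage factors of macrophages. SPRET/EiJ is an inbred strain derived from the wild species Mus spretus, whose genome differs from that of the C57BL/6J reference at many sites.

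A value is the number of tags (aligned reads) in the 1000 bp around the centre of a region, scaled to 10000000 tags of the library. The basal libraries held 11697459 and 15186052 tags and the 24 h libraries 11342955 and 9285735 tags, so that 16 normalized tags stood for 14.9 to 24.3 reads. Of the tags, 48.4% and 51.02% fell in the regions in basal replicates 1 and 2, 51.8% in 24 h replicate 1 and 39.6% in 24 h replicate 2, which stands apart from the other 3. The replicates correlated across regions at r = 0.953 (basal) and r = 0.941 (24 h) on the log2 scale, and none were identical. All 8 macrophage markers examined (Csf1r, Adgre1, Cd68, Mertk, Spi1, Itgam, Fcgr1 and Lyz2) had a promoter region, with summed tags of 3541 and 3514 in basal cells and of 3515 and 2258 at 24 h. None of 6 T cell and none of 6 mast cell or basophil markers had a region. For neutrophils, Ly6g, Mpo and Ltf had none and the other 3 markers summed to 167 to 291 tags. For B cells, Ms4a1 alone of 6 had one (69.7 to 151 tags). For dendritic cells, Zbtb46 alone of 5 had one (13.7 and 12.5 tags in basal cells, 75.8 and 16.2 at 24 h). For fibroblasts, Col1a1 and Pdgfra of 6 had one, at most 9.70 tags. No marker passed the test between the groups.

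The reference sequence at the regions with the largest changes is shown first, because 9 of the 12 regions with the largest rise held, within 200 bases around their centre, the letters TTC and GAA 4 bases apart, to which STAT6 binds. The lines give 30 bases of the C57BL/6J reference (mm10, plus strand, not the SPRET alleles) around this match, which is in capitals, for regions that rose. Fbp1, Usp20, Nbas, Gfra2, Pex26, Nap1l3, Cish and Dut head the list of rises, and Jak2, Egr2, Bhlhe40 and Pdcd1lg2 are genes of the IL-4 pathway or of alternative activation. A region is named by the closest protein-coding gene start. The letters alone do not show binding. In SPRET the Cish region overlapped no STAT6 peak, and the Egr2 region overlapped a STAT6 peak of the basal list only.
Fbp1, chr13:62895388-62895417: tcttcttggcTTCTCAAGAActctagacat
Usp20, chr2:31008565-31008594: atctggtTTCTTTGGAActcactatataga
Nbas, chr12:13410382-13410411: ccttcctgtctattcTTCTGCAGAAtttac
Gfra2, chr14:70880302-70880331: cttatctgagTTCAACAGAAtagtggaaca
Pex26, chr6:121194785-121194814: tcaacagcttTTCTCTAGAAgaggaaacgt
Nap1l3, chrX:121506278-121506307: tacttcctttTTCCAGTGAAggatcatagc
Cish, chr9:107307301-107307330: cttcagctccTTCCAAGGAAcagtttggga
Dut, chr2:125268956-125268985: aagtgaagagTTCTGAAGAActaaagaaag
Jak2, chr19:29239713-29239742: caattccaaaTTCCCTGGAAgggaacttct
Egr2, chr10:67539165-67539194: actggcagtcTTCAGCTGAAgcgcagcggg
Bhlhe40, chr6:108569708-108569737: ttactcaacaTTCTGCAGAAgtcaggggtg
Pdcd1lg2, chr19:29410827-29410856: catgctccagTTCCTCAGAAaccattctgg
Among the 12 regions with the largest fall only those at Sulf2 and Rexo4 held such a match.
Sulf2, chr2:166262080-166262109: cacatcgaccTTCCTCCGAAgcacaggctg
Rexo4, chr2:26954982-26955011: ggggaacctgTTCTCCTGAAgcacactgcc
The 200 bases around the region centre follow for 2 regions that rose (Fbp1, Jak2) and 2 that fell (Sh3pxd2a, Maf), with matches to the STAT6, EGR (GTGGGNG) and ETS (GGAAGT, the core bound by PU1 and its relatives) letters on either strand in capitals. Fbp1 held a STAT6 and an EGR match, Jak2 a STAT6 and an ETS match, Sh3pxd2a 1 ETS match and Maf 2 ETS matches.
Fbp1, chr13:62895387-62895586: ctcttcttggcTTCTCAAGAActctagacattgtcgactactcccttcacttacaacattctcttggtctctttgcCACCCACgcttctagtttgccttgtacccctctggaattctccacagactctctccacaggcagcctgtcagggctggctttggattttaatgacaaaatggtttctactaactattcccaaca
Jak2, chr19:29239570-29239769: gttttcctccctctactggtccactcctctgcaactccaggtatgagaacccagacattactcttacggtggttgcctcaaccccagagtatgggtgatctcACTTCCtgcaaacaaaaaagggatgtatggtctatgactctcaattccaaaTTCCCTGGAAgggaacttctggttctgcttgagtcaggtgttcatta
Sh3pxd2a, chr19:47446928-47447127: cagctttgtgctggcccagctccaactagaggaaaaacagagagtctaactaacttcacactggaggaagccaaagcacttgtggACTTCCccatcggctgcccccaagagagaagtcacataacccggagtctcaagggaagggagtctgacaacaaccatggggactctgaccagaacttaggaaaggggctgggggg
Maf, chr8:115555507-115555706: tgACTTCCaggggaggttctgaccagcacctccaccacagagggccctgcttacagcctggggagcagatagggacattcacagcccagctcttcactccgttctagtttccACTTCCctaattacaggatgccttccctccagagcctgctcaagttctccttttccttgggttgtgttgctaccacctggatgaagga

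After 24 h of IL-4, H3K27ac was higher at 544 regions and lower at 105 regions. The regions that rose lay near genes of alternative activation (Fbp1, Arg1, Mrc1, Slc7a2, Pdcd1lg2), feedback inhibitors of cytokine signalling (Socs1, Cish) and transcription factor genes (Irf4, Batf3, Klf4, Egr2). The regions that fell lay near Cx3cr1, the receptor of the chemokine fractalkine, C5ar1, a receptor of complement C5a, and the inflammasome sensor gene Nlrp3. Other inflammatory genes went the other way, with a higher region assigned to Il1a, Il1b and Ripk2, that of Ripk2 at 61.4 kb from its start. The higher regions went from a median of 13.9 to 87.8 normalized tags, with a median log2 fold change of 2.45 (range 1.5 to 6.92). The lower regions went from a median of 110.8 to 30.8 normalized tags, with a median log2 fold change of -1.86 (range -3.18 to -1.46). All regions had a median of 32.5 tags in basal cells and 32.6 at 24 h, and a median log2 fold change of -0.09.

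These calls are those of limma on log2(normalized tags + 1), a scale that understates the fold change of low regions, with a Benjamini-Hochberg adjusted p under 0.05. They make up 0.994% (higher) and 0.192% (lower) of the 54755 regions tested. At an unadjusted p under 0.05 there were 3456 higher and 3223 lower regions. In all 544 and all 105 regions the basal and 24 h libraries did not overlap, against 18.2% of all regions (9958) without overlap and higher at 24 h and 23.9% (13113) without overlap and lower. A rule of size, at least 2.5-fold between group means (pseudocount 1) with at least 16 tags in either group, gave 1447 higher (2.64%) and 514 lower (0.939%) regions, and 538 and 104 of the limma calls were among them. Required of Pol II too (with at least 8 tags), the rule gave 478 higher (0.873%) and 121 lower (0.221%) regions. The limma calls rest on all 4 libraries, since without 24 h replicate 1 or 24 h replicate 2 none remained in either direction, without basal replicate 1 there were 92 higher and 0 lower, and without basal replicate 2 there were 237 higher and 8 lower. With the libraries scaled by the median ratio over regions, 413 regions were higher and 20 lower, so that 95.4% of calls were rises against 83.8% here. With a block for the replicate number, 2367 regions were higher and 1483 lower, but the labels do not establish that pairing.

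The library with the lower tag share, 24 h replicate 2, lay below 24 h replicate 1 in 447 of the 544 higher regions, in 43 of the 105 lower regions and in 60.9% of all regions. Taken alone against the basal mean, 24 h replicate 1 gave a median log2 fold change of 2.70 and 24 h replicate 2 one of 2.12 at the higher regions. At the lower regions the medians were -1.95 and -1.74. The regions were called from these same values, so the sign in each library follows from the call, and the part of the share of tags in the size was not tested.

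**Figure D1:**
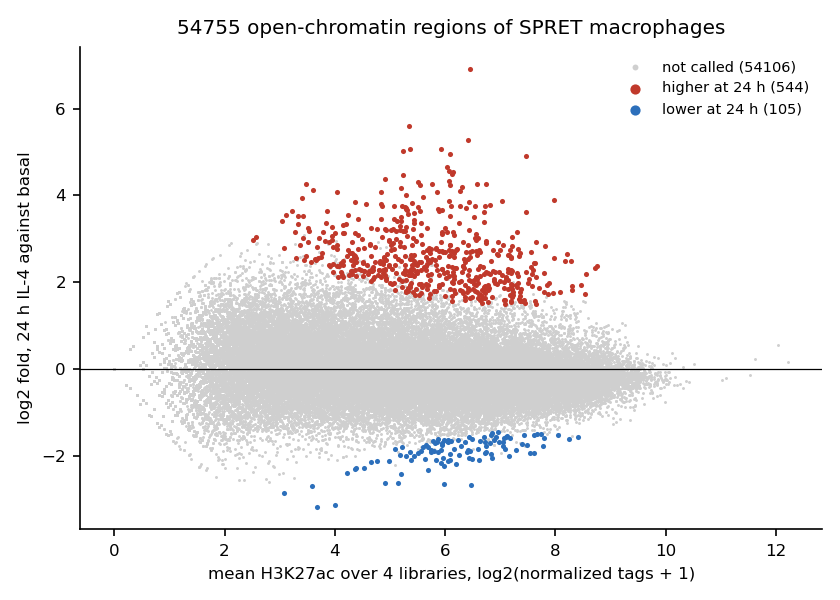
Log2 fold change of H3K27ac at 24 h of IL-4 against basal cells (vertical axis, limma) for the 54755 regions against their mean level over the 4 libraries (horizontal axis, log2(normalized tags + 1)). The 544 regions called higher reach a log2 fold change of 6.92 and the 105 called lower reach -3.18, while the median of all regions is -0.09.

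The regions with the largest rise went from a few tags in basal cells to many at 24 h. The largest rise lay 7.20 kb upstream of Fbp1, which encodes the gluconeogenic enzyme fructose-1,6-bisphosphatase. There H3K27ac was 0.85 and 0 normalized tags in the basal libraries and 229 and 116 tags at 24 h (chr13:62894986-62895986, log2 fold change 6.92 ± 0.54 (SE), adjusted p = 2.73e-05). Both 24 h libraries stood far above both basal libraries, in which 1 read was counted against 368 reads at 24 h, a ratio of 480 with a 95% counting interval of 85.5 to 18993. In an intron of Usp20, a deubiquitinase gene, the level was 0.85 and 1.98 tags in basal cells and 91.7 and 66.8 tags at 24 h (chr2:31008164-31009164, log2 fold change 5.08 ± 0.51, adjusted p = 0.000185). In an intron of Nbas, a gene of transport between Golgi and endoplasmic reticulum, it was 4.27 and 19.1 tags in basal cells and 480 and 200 tags at 24 h (chr12:13409811-13410811, log2 fold change 4.92 ± 0.54, adjusted p = 0.000319). The Nbas region thus reached the highest level of the 12, with 24 h replicate 2 under 24 h replicate 1 and neither near the basal values.

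At the transcript end of Rmi2, a gene of the complex that resolves recombination intermediates, the level was 5.13 and 2.63 tags in basal cells and 166 and 85.1 tags at 24 h (log2 fold change 4.67). Upstream of Gfra2, a receptor gene for the GDNF family of growth factors, it was 3.42 and 3.95 tags in basal cells and 219 and 53.9 tags at 24 h (log2 fold change 4.55). At 10.6 kb from the start of Cish, whose product belongs to the SOCS family of cytokine signalling inhibitors, it was 3.42 and 0 tags in basal cells and 93.5 and 19.4 tags at 24 h (log2 fold change 4.38). At Gfra2 and Cish the 24 h libraries lay apart from each other as well as from the basal ones. The other 6 were regions near Hrh4, the histamine H4 receptor gene (log2 fold change 4.95), C330018D20Rik (4.57), Pex26, a peroxisome gene whose 3′ UTR held the region (4.51), Nap1l3 (4.46), the dUTPase gene Dut (4.34) and the exonuclease gene Exo5 (4.30). Of the 12, the regions named for Nap1l3, Hrh4 and Nbas lay 891, 232 and 141 kb from that gene's start, so the name only gives the closest start. 8 of the 12 regions were intergenic and 2 intronic, 11 were open chromatin in the 24 h list only, 11 overlapped a STAT6 peak and 9 an EGR2 peak at 24 h, against 2 and 1 in basal cells.

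The largest falls started from low or middling levels. In an intron close to Slc2a8, a glucose transporter gene, H3K27ac was 29.1 and 13.8 tags in basal cells and 4.41 and 0 tags at 24 h (log2 fold change -3.18 ± 0.74, adjusted p = 0.0445). Near Rsg1 it was 41.9 and 14.5 tags in basal cells and 1.76 and 2.15 tags at 24 h (log2 fold change -3.13, adjusted p = 0.0155). At 151 kb from the start of Maf, too far for the region to be assigned to that gene below, it was 26.5 and 13.2 tags in basal cells and 3.53 and 1.08 tags at 24 h (log2 fold change -2.69, adjusted p = 0.0431). In these 3 regions the basal replicates differed from each other by more tags than the lower basal value did from the higher 24 h value, and none of the 3 passed the test under median-ratio scaling, where the log2 fold changes were -3.16, -3.05 and -2.63.

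Higher basal levels and closer replicates were seen at the next falls. In an intron of Sh3pxd2a, a scaffold gene of podosomes, H3K27ac was 161 and 144 tags in basal cells and 22.04 and 23.7 tags at 24 h (chr19:47446527-47447527, log2 fold change -2.68 ± 0.36, adjusted p = 0.00128). At the promoter of Cx3cr1 it was 117 and 96.8 tags in basal cells and 11.5 and 22.6 tags at 24 h (chr9:120067892-120068892, log2 fold change -2.65 ± 0.42, adjusted p = 0.00422). Near Sulf2, a heparan sulfate sulfatase gene, it was 56.4 and 44.8 tags in basal cells and 9.70 and 5.38 tags at 24 h (log2 fold change -2.63, adjusted p = 0.00966). At these 3 the spread within a group was small beside the distance between the groups. The other 6 were regions near Rexo4 (-2.42), Nr3c1, the glucocorticoid receptor gene (-2.39), the coenzyme A synthesis gene Ppcdc (-2.32), Angptl7 (-2.30), the fatty acid transport gene Slc27a2 (-2.28) and Fbxo11 (-2.24). Of the 12, 7 were intronic and 3 intergenic, 8 held ETS letters, and 8 overlapped a STAT6 peak in basal cells against 5 at 24 h.

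**Figure D2:**
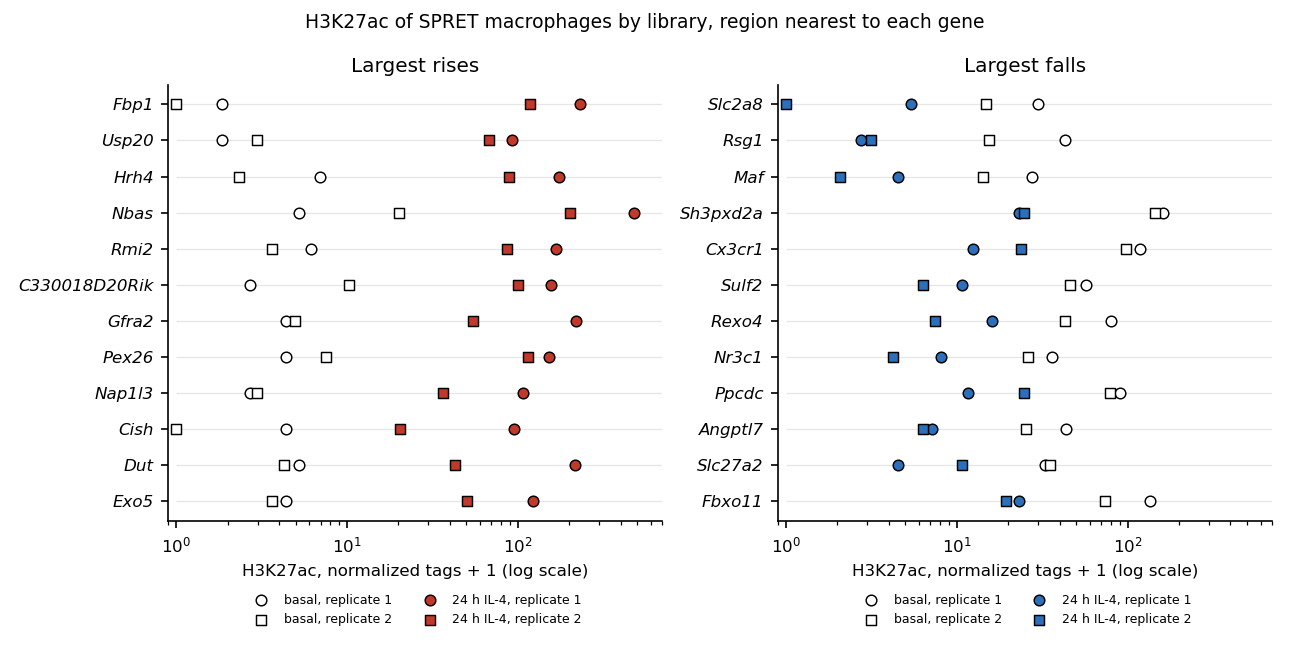
H3K27ac in normalized tags (log scale) in each of the 4 libraries at the 12 regions with the largest rise and the 12 with the largest fall, 1 point per library and no error bars. At Fbp1 both 24 h points (229 and 116) lie over both basal points (0.85 and 0), and at Sh3pxd2a both 24 h points (22.04 and 23.7) lie under both basal points (161 and 144).

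Some genes had several called regions. Socs1, which encodes a JAK inhibitor induced by cytokines, had 9 of its 17 regions higher (log2 fold changes 2.23 to 4.27), 4 of them within 2.39 kb at its start and 4 within 10.1 kb some 81.3 to 90.4 kb away. Cyp1b1, a cytochrome P450 gene, had 6 of 7 regions higher (2.60 to 3.88), Fbp1 5 of 6 (3.53 to 6.92), and Atf5, a stress-response transcription factor gene, 4 of 5 (1.61 to 2.61). Fam20c, a secretory pathway kinase gene, had 5 of 30 higher, Lrrc32, a receptor gene for latent TGF-beta, 5 of 11, the sphingosine-1-phosphate receptor gene S1pr3 4 of 10, Pop4 4 of 6, Rnf216 4 of 14 and Inpp5a 4 of 18. On the falling side, Ppcdc had 5 of 10 regions lower (-2.32 to -1.71), Cx3cr1 4 of 6 (-2.65 to -1.58), and Sh3pxd2a, Gramd1b and Gng2 had 2 each, of 12, 23 and 6. None of these 15 genes had a region called in the other direction. In all, 327 genes had a higher region and 68 a lower one within 100 kb of their start, 1 gene had both, and 67 higher and 18 lower regions had no start within 100 kb.

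At the strongest Cyp1b1 region, 71.8 kb upstream of the gene, H3K27ac was 18.8 and 45.4 tags in basal cells and 616 and 324 tags at 24 h (log2 fold change 3.88 ± 0.43, adjusted p = 0.000319). At the Socs1 region 1.03 kb upstream of the start it was 3.42 and 5.27 tags in basal cells and 117 and 86.2 tags at 24 h (log2 fold change 4.27 ± 0.45, adjusted p = 0.000247). The Cyp1b1 region held more tags than the Socs1 region in each library, and in both the groups were far apart. Joined where they lay at most 25 kb apart, the 544 higher regions formed 379 runs, 101 of them with at least 2 regions, and the 105 lower regions formed 82 runs, 15 with at least 2. The longest runs of rises covered Atf5 and Il4i1, an amino acid oxidase gene named for its induction by IL-4 (7 regions over 20.7 kb), and Fbp1 and Fbp2 (6 regions over 46.0 kb). The longest runs of falls covered Cx3cr1 and Xirp1 (6 regions over 31.7 kb) and Ppcdc (5 regions over 9.43 kb). A further run of 3 lower regions over 27.7 kb had Maf as the closest gene. Regions closer than 1000 bp share reads, which held for 39 pairs of neighbours among the higher and 6 among the lower regions.

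Promoters made up a smaller share of the called regions than of all regions. Of the 544 higher regions, 256 (47.1%) were intergenic, 241 (44.3%) intronic and 20 (3.68%) promoters in the authors' annotation, against 31.5%, 43.6% and 18.2% of all regions. Of the 105 lower regions, 45 (42.9%) were intergenic, 48 (45.7%) intronic and 5 (4.76%) promoters. For the falls this rests on single libraries, since by the rule of size 5.25% of lower regions were promoters, but 12.1% without basal replicate 1 and 20.2% without 24 h replicate 1, which is above the share of all regions. As a share of each class, 1.48% of the 17253 intergenic regions, 1.01% of the 23888 intronic regions and 0.201% of the 9951 promoters were higher, against 0.994% of all regions. Promoters had a median level of 107 normalized tags and a median log2 fold change of -0.17, against 21.6 tags and -0.05 for intergenic and 24.8 tags and -0.05 for intronic regions. Exons (8 higher, 3 lower of 1117), transcript ends (11 and 2 of 1068), 3′ UTRs (4 and 2 of 692), 5′ UTRs (2 and 0 of 534) and non-coding transcripts (2 and 0 of 239) made up the rest, with 13 regions without a class and without a call. The median distance to the closest protein-coding start was 23.3 kb for higher, 18.7 kb for lower and 11.4 kb for all regions.

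Open chromatin, called by the authors from ATAC-seq, moved with the direction. Of the higher regions 329 (60.5%) were open in the 24 h list only, 190 (34.9%) in both lists and 25 (4.60%) in the basal list only, against 24.3%, 57.5% and 18.2% of all regions. Of the lower regions 7 (6.67%) were open at 24 h only, 62 (59.0%) in both and 36 (34.3%) in basal cells only. The median log2 fold change was 0.14 over the 13301 regions open at 24 h only and -0.15 over the 9966 open in basal cells only.

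**Figure D3:**
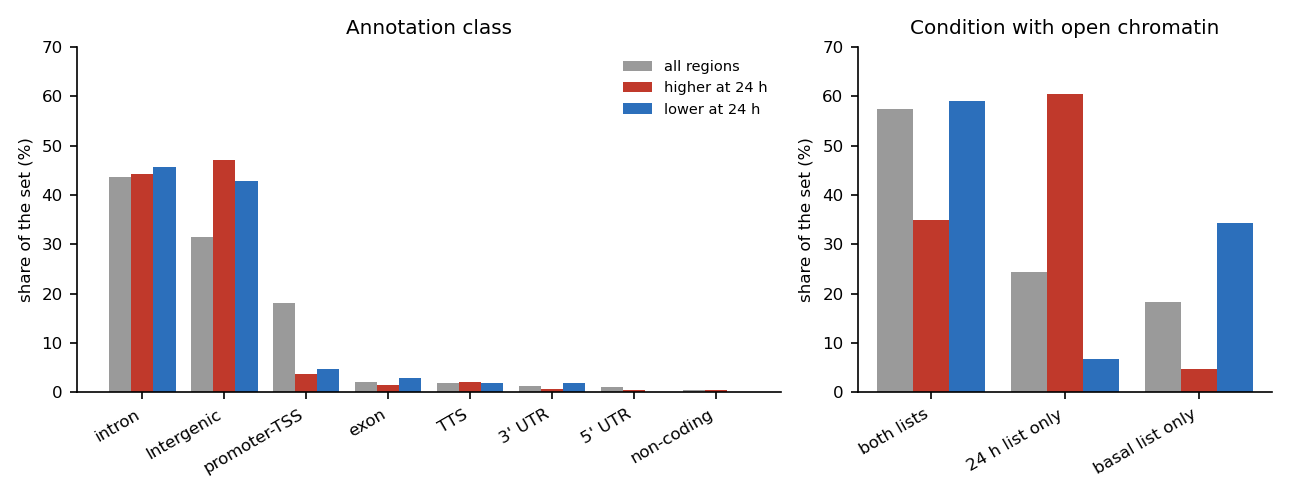
Share of regions in percent (axis from 0) that fall in each annotation class and each class of open chromatin, for the regions higher at 24 h (544), lower at 24 h (105) and all regions (54755). Promoters make up 3.68% of higher and 4.76% of lower regions against 18.2% of all, and regions open in the 24 h list only make up 60.5%, 6.67% and 24.3%.

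The promoters that rose most were those of Pdcd1lg2, Cish and Il20rb. At the promoter of Pdcd1lg2, which encodes the PD-1 ligand PD-L2, H3K27ac was 11.97 and 5.93 tags in basal cells and 249 and 61.4 tags at 24 h (chr19:29410363-29411363, log2 fold change 3.72 ± 0.55, adjusted p = 0.00281). For the promoter of Cish it was 10.3 and 1.32 tags in basal cells and 97.9 and 33.4 tags at 24 h (log2 fold change 3.51, adjusted p = 0.0141). At the promoter of Il20rb, a subunit of the receptors for IL-20 family cytokines, it was 4.27 and 3.95 tags in basal cells and 97.9 and 29.1 tags at 24 h (log2 fold change 3.42, adjusted p = 0.00553). In all 3 the lower 24 h library was replicate 2, and it still exceeded both basal libraries. Next came Tmem26, a transmembrane protein gene (2.95), and a region annotated as a promoter 96.0 kb from the protein-coding start of Chic2 (2.98). The promoters that fell most were those of Cx3cr1 (-2.65), Bmf, a pro-apoptotic BCL2 family gene (-1.87), C5ar1 (-1.76), the plexin gene Plxnb2 (-1.65) and Xylt2, a xylosyltransferase gene (-1.62). At C5ar1 the level went from 236 and 168 tags in basal cells to 45.8 and 73.2 tags at 24 h (adjusted p = 0.0246), without overlap. Of the 5, only Cx3cr1 still passed under median-ratio scaling, where the log2 fold changes of the other 4 were -1.78 (Bmf), -1.68 (C5ar1), -1.57 (Plxnb2) and -1.54 (Xylt2).

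Higher regions were found at many genes of alternative activation. Of 24 genes of this list 21 had a region, 11 of them a higher one and none a lower one, and the median log2 fold change over their 135 regions was 0.70 against -0.09 over all regions. In the list of IL-4 signalling and feedback it was 4 of 19 genes with a region (Jak2, Irs2, Socs1 and Cish), with a median of 0.12, and in that of transcription factors of the IL-4 response it was 6 of 17 (Egr2, Irf4, Klf4, Myc, Batf3 and Bhlhe40), with a median of 0.20. No gene of these 2 lists had a lower region. By region, 15.6% of the 135, 7.82% of the 179 and 5.00% of the 240 regions of these lists were higher, against 0.994% of all regions. The lists were chosen with earlier results of these data known, and Arg1, Slc7a2 and Egr2 are also examples of the study. The shares are thus no independent evidence of a direction. Of the 14 higher regions in IL-4 signalling and feedback, 9 lay at Socs1, where some regions overlap and share reads, and 3 at Cish. By gene, 2.33% of the 14028 genes with a region had a higher one and 0.485% a lower one, but these had a median of 2 regions per gene against a mean of 6.43, 9.42 and 14.1 in the 3 lists, and a gene with many regions has more chances of a call.

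Among the metabolic genes of alternative activation, Arg1, which encodes arginase and competes for arginine, rose at a region 4.17 kb upstream of its start. The level there was 70.1 and 107 tags in basal cells and 389 and 258 tags at 24 h (chr10:24931152-24932152, log2 fold change 1.86 ± 0.37, adjusted p = 0.0174). At the promoter of Slc7a2, a transporter of arginine, it was 56.4 and 56.6 tags in basal cells and 469 and 208 tags at 24 h (log2 fold change 2.45 ± 0.39, adjusted p = 0.00494). Slc7a2 rose at 3 regions and Arg1 at 1, each without overlap between the groups. Fbp2, the muscle form of the Fbp1 enzyme, had 0 and 0.66 tags in basal cells and 20.3 and 9.69 tags at 24 h, which is 1 read against 32 reads, a ratio of 41.7 with a counting interval of 6.97 to 1698.

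Other genes of this list with a higher region encode lectins, receptors and enzymes. In an intron of Mrc1, the mannose receptor gene, the level was 9.4 and 3.95 tags in basal cells and 46.7 and 24.8 tags at 24 h (log2 fold change 2.29, adjusted p = 0.0476), and it missed the threshold under median-ratio scaling (adjusted p = 0.0877). For the promoter of Mgl2, a galactose-type lectin gene, it was 65.8 and 73.8 tags in basal cells and 194 and 255 tags at 24 h (log2 fold change 1.66, adjusted p = 0.0242). Mgl2 is among the regions where 24 h replicate 2 was the higher one. Higher regions were also called at Tgm2, the transglutaminase gene (log2 fold changes 2.23 and 3.29), Flt1, a VEGF receptor gene (2.22), and Ptgs1, the cyclooxygenase-1 gene (1.73 and 1.58). The lower of the Tgm2 values also missed the threshold under median-ratio scaling (adjusted p = 0.0843). The 10 genes of the list without a call went both ways, by the median log2 fold change of their regions. It was 1.33 at Ccl24, 1.32 at Ccl17, 0.58 at Cdh1, 0.26 at Igf1, 0.15 at Il1rn, 0.13 at Ccl22 and -0.02 at Ear2, and it was -0.35 at the lectin gene Clec10a, -0.44 at the lectin gene Cd209a and -1.15 at the lipoxygenase gene Alox15. No region was assigned to Retnla, Chil3 or Chil4, 3 genes known as IL-4 targets, which are not analysed here.

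Upstream in the pathway, Jak2, the gene of a JAK kinase, rose at a region 12.2 kb before its start, from 5.98 and 5.27 tags in basal cells to 75.8 and 46.3 tags at 24 h (log2 fold change 3.19 ± 0.47, adjusted p = 0.00258). Irs2, an adaptor phosphorylated after IL-4 binds its receptor, rose from 5.13 and 13.8 tags to 63.5 and 50.6 tags (log2 fold change 2.60, adjusted p = 0.0136). At the promoter of Socs1 the level went from 55.6 and 107 tags to 666 and 355 tags (log2 fold change 2.64, adjusted p = 0.00342). The Socs1 promoter held the most tags of these in every library, and in all 3 the groups did not overlap.

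Of the transcription factor genes, Irf4, an interferon regulatory factor gene of alternative activation, rose most, at a region 34.5 kb upstream. There the level was 8.55 and 7.90 tags in basal cells and 220 and 140 tags at 24 h (chr13:30714270-30715270, log2 fold change 4.26 ± 0.40, adjusted p = 0.000185). In the intron of Egr2 it was 41.9 and 113 tags in basal cells and 427 and 213 tags at 24 h (log2 fold change 2.12 ± 0.45, adjusted p = 0.0284). The basal libraries of Egr2 lay further apart than those of Irf4, and under median-ratio scaling Egr2 had a log2 fold change of 2.2 and missed the threshold (adjusted p = 0.0565). Batf3, an AP-1 family gene, rose at 4 regions (1.98 to 2.64), Klf4 at 2 (1.86 and 2.03) and Bhlhe40 at 1 (2.24). Myc rose at 1 (1.81), which also missed the threshold under that scaling (log2 fold change 1.90, adjusted p = 0.0581). The Bhlhe40 and Myc regions lay 91.0 and 77.2 kb from the starts of these genes. With a start required within 50 kb, 4 transcription factor genes of the IL-4 response had a higher region.

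Lipid-handling and inflammatory genes had called regions at 2 and 4 genes. By region, 2.68% of the 149 lipid-handling regions were higher, and 1.91% of the 157 inflammatory regions were higher and 0.637% lower, against 0.994% and 0.192% of all regions. Of 18 lipid-handling genes with a region, Abcg1, a cholesterol exporter gene (3 regions, log2 fold changes 1.91 to 2.23), and Scd1, a fatty acid desaturase gene (1.80), had a higher region and none a lower one (median 0.12). Of 25 inflammatory and NF-kB genes (median 0.18), Il1a (1.94), Il1b (1.60) and Ripk2 (1.80) had a higher region and Nlrp3 a lower one. Ripk2 is a kinase gene of NOD receptor signalling, and its higher region lay 61.4 kb from its start. With a start required within 50 kb, 2 inflammatory genes had a higher region and 1 a lower one. Next to the start of Nlrp3 the level was 285 and 231 tags in basal cells and 82.0 and 72.2 tags at 24 h (chr11:59541035-59542035, log2 fold change -1.73 ± 0.34, adjusted p = 0.0181). Of 14 chemokine and Fc receptor genes, Cx3cr1 and C5ar1 had a lower region and the inhibitory Fc receptor gene Fcgr2b a higher one (1.60), with a median of -0.30 over the list, and 7.69% of its 65 regions were lower, 4 of these 5 at Cx3cr1, where 3 of the 4 missed the threshold under median-ratio scaling (adjusted p = 0.0561 to 0.0587). This list was the one with the lowest median.

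In 6 lists no gene had a called region within 100 kb of its start by limma. These were lineage factors (15 genes with a region, median log2 fold change -0.06), interferon-stimulated genes (18, -0.12), pattern and scavenger receptors (21, -0.16), MHC class II (11, -0.06), lysosome (20, -0.15) and cell cycle (20, -0.09). Together they held 647 regions, of which the shares of all regions would give 6.43 higher and 1.24 lower, and interferon-stimulated genes and MHC class II, with 42 and 49 regions, would have 0.417 and 0.487 higher, so that 0 is near the background there. At an unadjusted p under 0.05 by limma 28 of the 647 were higher and 38 lower, edgeR with library totals called 4 and 7, and DESeq2 4 and 6. Over all 54755 regions the same settings gave 3456 and 3223 by limma, 963 and 263 by edgeR, and 792 and 175 by DESeq2. By the rule of size 4 lineage factor genes had a higher region and 1 a lower one. A run of 3 regions called lower by limma (log2 fold changes -2.69 to -2.04) had the lineage factor gene Maf as the closest gene. These lay over 100 kb from its start and are not counted here. The 14 regions assigned to Maf had a median log2 fold change of -1.15. Spi1, the gene of PU1, had 1084 and 1071 tags in basal cells and 1068 and 730 tags at 24 h at its most acetylated region (log2 fold change -0.29 ± 0.42, adjusted p = 0.86). Trem2, a lipid receptor gene of macrophages, had 892 and 1064 tags in basal cells and 1349 and 795 tags at 24 h (log2 fold change 0.09 ± 0.44, adjusted p = 0.966). The groups overlapped at Trem2 and came within a few tags of each other at Spi1.

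Genes that the study shows as examples were called in part, and as the study chose them on these strains their count is no independent evidence of a direction. Of 10, 9 had a region and 5 a higher one (Arg1, Slc7a2, Ripk2, Egr2 and Mmp12, a macrophage elastase gene, log2 fold change 1.95). With a start required within 50 kb, 4 had a higher one, as the Ripk2 region lay 61.4 kb from its start. For Cd36, a fatty acid and scavenger receptor gene, the level was 69.2 and 64.5 tags in basal cells and 192 and 118 tags at 24 h (log2 fold change 1.16, adjusted p = 0.154). Every 24 h value at Cd36 was above every basal value, and the region missed the threshold here. Treml2 had a log2 fold change of 0.95 (adjusted p = 0.283), Btbd11 had at most 1.08 tags in any library at its region with the lowest p, and Msx3 had no region.

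The other marks in the same regions were read in SPRET libraries of their own. Pol II was measured in 3 basal and 3 24 h libraries. By limma it was called higher at 428 of all regions (0.782%) and lower at 148 (0.27%). With a block for the replicate number, a pairing that the labels do not establish, it was called at 1949 (3.56%) and 2644 (4.83%). Of the 544 regions with higher H3K27ac, 165 (30.3%) had higher Pol II, 355 with the block, and none lower Pol II. Of the 105 with lower H3K27ac, 21 (20.0%) had lower Pol II, 72 with the block, and none higher. The median log2 fold change of Pol II was 1.51 at the first, where 98.3% of regions had a positive value, -1.35 at the second and -0.10 over all regions. At the Fbp1 region the mean Pol II level went from 0.323 to 32.2 tags (log2 fold change 4.63, limma adjusted p = 0.00268), and at the Cx3cr1 promoter from 36.0 to 3.09 tags (-3.18, adjusted p = 0.0221). Pol II thus moved with H3K27ac at both.

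The methylation marks gave no calls by limma. H3K4me2, a mark of promoters and enhancers whether active or poised, had 0 higher (0.0%) and 0 lower (0.0%) regions by limma, with 574 and 17177 at an unadjusted p under 0.05. Its share of tags in regions was 25.2% and 28.7% in basal cells and 19.1% and 18.4% at 24 h, and the median log2 fold change over all regions was -0.48. Against that median, it was 0.20 at regions with higher H3K27ac and -0.78 at those with lower H3K27ac. H3K4me3, a mark of active promoters, had 0 higher (0.0%) and 0 lower (0.0%) regions by limma, with 2092 and 1286 at an unadjusted p under 0.05. By edgeR on recovered reads 162 and 47 regions passed for H3K4me3, and 1 and 3 for H3K4me2. The median log2 fold change of H3K4me3 was 0.89 at regions with higher H3K27ac, where the level was low (1.63 tags in basal cells and 3.80 at 24 h), -0.55 at those with lower H3K27ac and 0.00 over all.

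**Figure D4:**
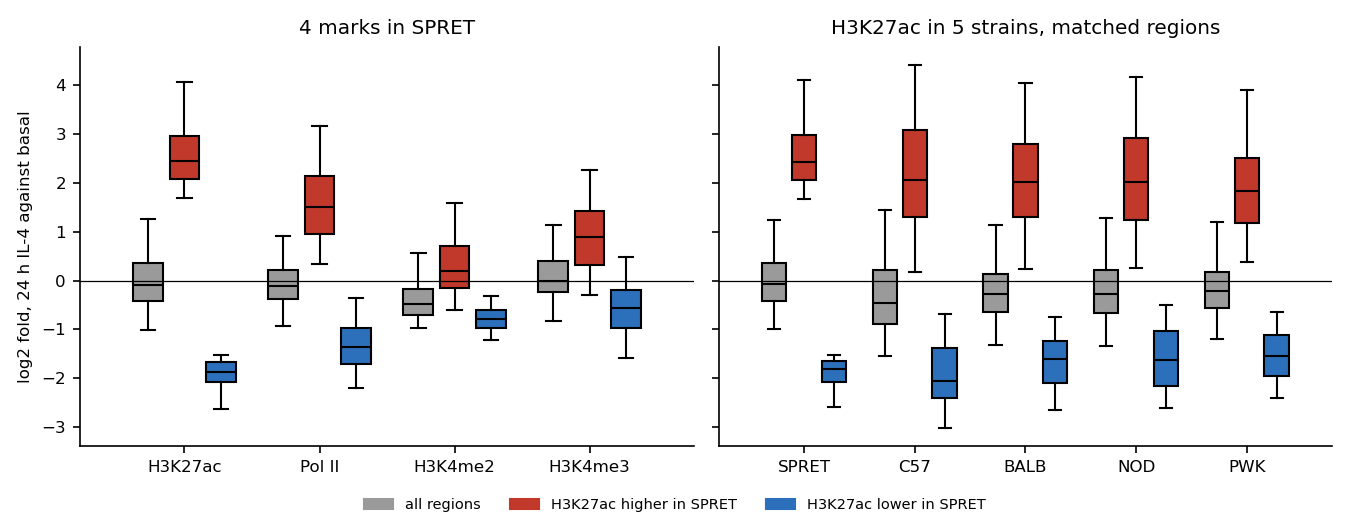
Log2 fold changes at 24 h of IL-4 for the marks in SPRET (left) and for H3K27ac in each strain at matched regions (right), for regions with H3K27ac called higher or lower in SPRET and for all regions. Boxes show the middle 50% of regions with the median as a line and whiskers the percentiles 5 to 95, and the Pol II medians are 1.51, -1.35 and -0.10.

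Binding was read from the authors' lists of reproducible peaks in SPRET, counting any overlap with the 1000 bp region. STAT6 peaks of the 24 h list overlapped 87.5% of higher, 56.2% of lower and 48.9% of all regions, and those of the basal list 31.3%, 68.6% and 41.8%. EGR2 peaks of the 24 h list overlapped 66.4% of higher, 20.0% of lower and 43.1% of all regions, and those of the basal list 18.2%, 11.4% and 19.8%. A STAT6 peak in the 24 h list only was found at 56.99% of higher and 5.71% of lower regions, and an EGR2 peak in the 24 h list only at 48.5% and 11.4%, against 15.9% and 24.5% of all regions. Both factors together at 24 h overlapped 60.8% of higher, 14.3% of lower and 25.2% of all regions. Of the higher regions 3.49% overlapped no 24 h peak of STAT6, EGR2, PPARg, PU1 or CEBPb, and of all regions 15.5%.

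PPARg peaks of the 24 h list overlapped 41.5% of higher, 21.9% of lower and 23.3% of all regions, and CEBPb peaks 48.5%, 37.1% and 34.1%. PU1 peaks of the basal list overlapped 67.6% of higher, 94.3% of lower and 75.4% of all regions, and those of the 24 h list 79.4%, 81.9% and 69.5%. Of the lower regions 12.4% had a PU1 peak in the basal list only and 0 in the 24 h list only. The lists were pooled over replicates by the authors and their lengths differ (12301 EGR2 peaks in basal cells and 39458 at 24 h), so a share is set beside that of all regions and carries no test.

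In the 200 bases around the region centre, the letters of STAT6 (TTC and GAA 4 bases apart) were found in 201 higher (36.9%), 4 lower (3.81%) and 2816 of all regions (5.14%). Away from promoters the shares were 37.4%, 4.00% and 5.61%. The EGR letters GTGGGNG stood in 30.7% of higher, 9.52% of lower and 20.1% of all regions, and the ETS letters GGAAGT in 34.9%, 45.7% and 35.2%. The AP-1 letters TGANTCA stood in 18.2%, 6.67% and 14.7%, the CEBP letters TTGCNNAA in 16.5%, 16.2% and 11.7%, and the nuclear receptor letters AGGTCA in 15.8%, 10.5% and 13.4%. The median GC content of the windows was 48.5%, 50.5% and 52.0%. Each motif was read on both strands of the C57BL/6J reference, motifs may overlap, and a match is a description of these letters.

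**Figure D5:**
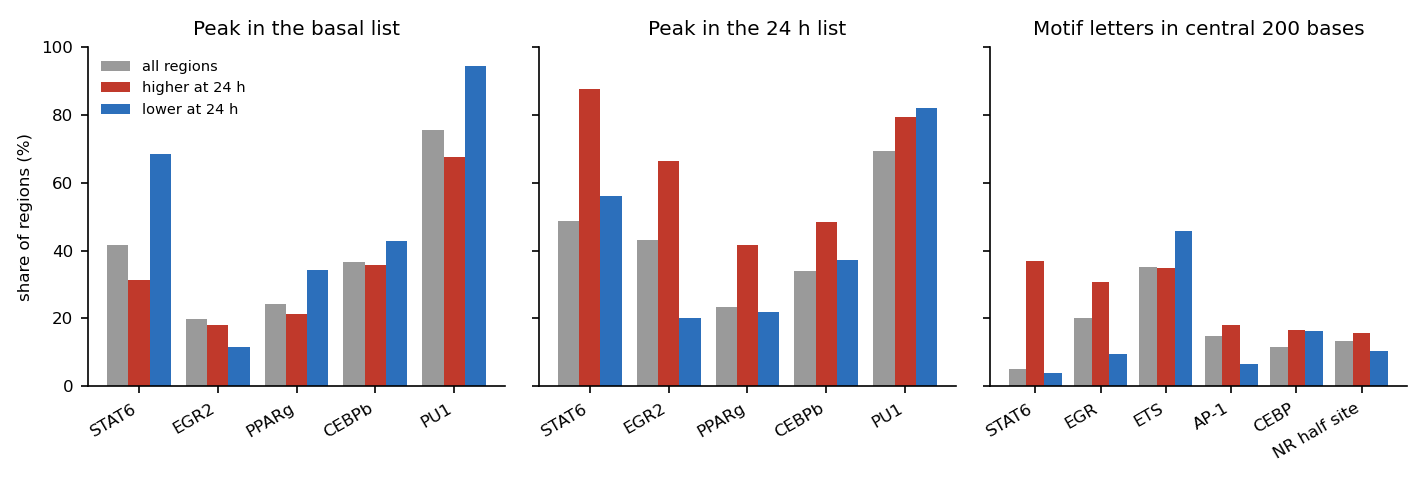
Share of regions in percent (axis from 0) that overlap a peak of each factor in the basal and 24 h lists and that hold each motif within 200 bases, for the regions higher at 24 h (544), lower at 24 h (105) and all regions (54755). STAT6 peaks at 24 h overlap 87.5% of higher regions and the STAT6 letters are in 36.9% of them, against 48.9% and 5.14% of all regions.

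The same loci were read in the tables of the other 4 strains where a region centre lay within 500 bp. Each strain's table was normalized and its regions called apart, so levels are set beside each other without a test. Of the 544 regions higher in SPRET, 350 had a counterpart in C57, 324 in BALB, 368 in NOD and 344 in PWK, with median log2 fold changes of 2.05, 2.03, 2.03 and 1.84, and the rule of size called 67.1% to 70.1% of them higher. Of the 105 lower regions 83, 87, 92 and 84 had a counterpart, with medians of -2.05, -1.61, -1.63 and -1.54, and 61.9% to 79.5% were lower by the rule of size. Over all matched regions the medians were -0.45, -0.27, -0.28 and -0.21. By the rule of size 2.41% to 3.05% of all matched regions were higher and 2.87% to 8.54% lower. Of all SPRET regions 65.4% to 73.4% had a counterpart, against 59.6% to 67.6% of the higher and 79.0% to 87.6% of the lower ones. Matched in all 4 strains were 246 higher regions, of which 133 passed the rule in all 4 and 39 in none, and 67 lower regions, of which 36 passed in all 4 and 7 in none. A further 110 higher and 7 lower regions had no counterpart in any strain.

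Named regions showed both patterns. The Nbas region rose in all 4 strains (log2 fold changes 4.21 to 6.64), as did that of Rmi2 (4.31 to 4.61), while the Sh3pxd2a region fell in all 4 (-3.59 to -2.38), as did the Cx3cr1 promoter (-3.63 to -2.98). The largest rise in SPRET, upstream of Fbp1, and those at Usp20 and at the Cish region 10.6 kb from the start had no counterpart within 500 bp in any of the 4 strains. A called region that overlaps this Cish region, 11.3 kb from the start (log2 fold change 4.16 in SPRET), had one in each, with log2 fold changes of 4.47 in C57, 4.10 in BALB, 3.44 in NOD and 4.42 in PWK. The centres of the 3 unmatched regions lay in no region of those tables, which says nothing of the level there. Of the called Fbp1 regions only that in intron 1 had counterparts. Its log2 fold change was 3.53 in SPRET, from a basal mean of 9.64 tags. It was 0.11 in C57, 0.07 in BALB, -0.60 in NOD and 0.05 in PWK, from 44.2, 58.7, 96.4 and 26.8 tags. The libraries of the 2 conditions overlapped in each of these 4 strains, and the difference was not tested. Among the largest falls, the Slc2a8 region had a log2 fold change of 0.70 in C57 and of -1.07 to -0.58 in the other 3, and the Angptl7 region one of 0.49 in C57 and of -0.78 to -0.08 in the other 3.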

How the data were processed

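ChIP-seq of H3K27ac was measured in 4 SPRET libraries, 2 basal and 2 after 24 h of IL-4, grouped by GEO's labels. According to its methods, bowtie2 alignments to a SPRET genome built from mm10 were shifted by the authors to mm10 positions and tags counted with HOMER in 1000 bp around open chromatin regions. The deposited signal values are these tags scaled by the authors to 10000000 tags per library, with replicates kept apart. For the peak lists, the authors kept HOMER peaks reproducible between replicates by IDR, with 1 list per group, and the deposited score was not used beyond its peak. Multiplied by the library total, 100% of 1989074 values gave whole reads within 0.1 read, so count tests could be run. Scaling to the library total leaves differences in the share of tags within regions uncorrected.

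Each region was tested with limma 3.58.1 (R 4.3.3, moderated by eBayes with a mean-variance trend) on log2(normalized tags + 1), without a filter, with Benjamini-Hochberg adjustment over the 54755 regions of each mark. Pol II (3 against 3 libraries), H3K4me2 and H3K4me3 (2 against 2) were fitted alike. Same-numbered Pol II libraries deviated together from their group means (r = 0.414 to 0.442 in all 3 pairs), so values with a replicate block stand beside the Pol II results. Counts with this block are also given for the H3K27ac calls. The labels establish no such pairing, and H3K27ac (r = 0.507), H3K4me2 (0.403) and H3K4me3 (0.609) libraries deviated together too. Alternatives were a pseudocount of 5, a filter of 16 normalized tags in the mean (8 for Pol II) and median-ratio scaling. Others were a replicate block, edgeR 4.0.16 (library totals or TMM) and DESeq2 1.42.0 on recovered reads, and each library left out in turn. For the rule of size a fold of 2, no minimum and a minimum of 32 normalized tags were also used. The tests were checked on simulated counts of independent libraries. These held neither the lower tag share of 24 h replicate 2 nor libraries that deviate together, so the check does not cover those features.

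The closest protein-coding start came from GENCODE vM21 (mm10), with Python 3.11.15, pandas 2.3.3 and pysam 0.24.0, and the annotation classes and open chromatin lists from the authors' table. Genes were assigned within 100 kb, with 50 kb as an alternative for the gene lists. Named are the 12 regions with the largest rise and the 12 with the largest fall (1 per gene, at least 16 tags in a group mean, groups without overlap), the 10 and 5 genes with the most called regions, the 5 promoters with the largest rise and fall, up to 6 called genes of each list or else the 2 with the highest H3K27ac, and the lowest-p region of each example gene. The values of 1 example gene are not reported here. The comparison and the lists were chosen with earlier results of these data known. Other called regions, named for runs, gene lists or opposite strains, were chosen after their values were seen. Sequences were read from mm10, and regions on chromosome 18 are named without sequence. A ratio with 1 to 3 reads in a group has an exact 95% interval, which covers counting error only. Input and other samples were not used here.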

Additional observations from a re-analysis of the deposited data

Results flagged for a closer look

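Of the regions called in SPRET, 12 moved the other way in another strain with libraries that did not overlap there, and 6 of them are given here because they did so in at least 2 strains or are named above. Of the matched regions higher in SPRET, 2.29% in C57, 1.54% in BALB, 1.09% in NOD and 0.581% in PWK were lower there without overlap, against 41.8%, 28.3%, 30.2% and 27.1% of all matched regions. Of those lower in SPRET, 2.41%, 0%, 1.09% and 0% were higher there without overlap, against 14.5%, 10.8%, 13.8% and 11.9% of all matched regions. The difference between strains was not tested, and the regions were chosen after their values were seen. The region at Stk35 (chr2:129892895-129893895) was higher at 24 h in SPRET, from 20.5 and 18.4 to 71.4 and 60.3 normalized tags, and lower in BALB (log2 fold change -0.81), C57 (-1.15), NOD (-0.97) and PWK (-0.72). In an intron of Acot7, an acyl-CoA thioesterase gene (chr4:152189941-152190941), H3K27ac rose in SPRET from 16.2 and 16.5 to 63.5 and 63.5 tags and was lower in BALB (-0.74), C57 (-1.15) and NOD (-0.53), where basal means were 408, 379 and 341 tags. The region named for Cwc27 (chr13:104610959-104611959) rose in SPRET from 17.95 and 29.6 to 227 and 114 tags and was lower in BALB (-0.65), C57 (-0.80) and NOD (-0.41). The intronic region of Rab33a (chrX:48525153-48526153) rose in SPRET from 41.0 and 50.7 to 173 and 120 tags and was lower in BALB (-0.69), C57 (-1.32) and NOD (-1.09). The region at Ift172, a cilium transport gene (chr5:31287951-31288951), rose in SPRET from 3.42 and 14.5 to 41.4 and 54.9 tags and was lower in BALB (-1.37) and C57 (-1.64), in both by the rule of size. The Angptl7 region (chr4:148509006-148510006), which fell in SPRET from 42.7 and 24.4 to 6.17 and 5.38 tags, was higher in C57 (0.49), from a mean of 7.00 to 10.2 tags. Both C57 means are under the 16 tags that the rule of size asks for.

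At Stk35, Acot7, Cwc27 and Ift172 the basal level of SPRET lay below that of the strains in which H3K27ac fell, while at Rab33a the basal levels were alike (41.0 and 50.7 tags in SPRET against means of 52.8, 50.6 and 49.8 in C57, BALB and NOD). The tables of the strains were normalized apart, so these levels are set beside each other without a test.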

How the results depend on the processing

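The calls of H3K27ac depend on each library, since 2 against 2 leaves little to estimate the spread from. Leaving out 1 library gave 0 to 237 higher and 0 to 8 lower regions, and none of the 65 named regions with a call (45 higher, 20 lower) passed without either 24 h library. Other settings gave 963 higher and 263 lower regions by edgeR with library totals, 175 lower by DESeq2, 232 lower with the filter and 20 lower under median-ratio scaling. The replicate block gave 2367 and 1483, but the 2 pairs share only a number (r = 0.507 between deviations), so the pairing is not established by the labels. All 544 and 105 calls were kept by edgeR with library totals, the block and a pseudocount of 5. TMM kept 524 and 64, DESeq2 499 and 94, the filter 495 and 101 and median-ratio scaling 398 and 20. Of the regions named by the rule, those without a call under median-ratio scaling were 5 rises (the Cish promoter, Egr2, Myc, Scd1 and Ripk2) and 12 falls (Slc2a8, Rsg1, Maf, Rexo4, Nr3c1, the Ppcdc region with the largest fall, Angptl7, Slc27a2, Bmf, C5ar1, Plxnb2 and Xylt2), and of the 62 called regions of the gene lists it was 16, which adds 3 regions of Cx3cr1, 2 of Socs1, and 1 each of Mrc1, Tmem26, Tgm2, Batf3 and Cish (11.3 kb from its start). The cause was not tested. None of the 65 named regions with a call turned its direction, and the other called regions were not checked. With 1 library left out the direction follows from groups that do not overlap, so it is no test there.

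Pol II gave 872 higher and 238 lower regions by edgeR with TMM, 1013 and 341 by DESeq2, 303 lower by edgeR with library totals, 254 lower with the filter, 1949 and 2644 with the replicate block, and 38 to 279 higher and 1 to 92 lower with 1 library left out. H3K4me2 gave 536 higher and 16186 lower with the block, 5 to 273 higher and 26 to 6270 lower with 1 library left out, 3 lower with the filter, 1 and 3 by edgeR with library totals, and 11 (TMM) and 4 (DESeq2) higher. H3K4me3 gave 162 and 47 by edgeR with library totals, 172 and 64 with TMM, 49 and 5 by DESeq2 and 1 higher with the filter.

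The rule of size gave 2330 higher and 859 lower without a minimum, 2442 and 1642 at a fold of 2, 296 lower with a pseudocount of 5, and 1346 to 2283 higher and 521 to 1190 lower with 1 library left out. Of higher regions 6.07% lay within 1000 bp of a start. By the rule of size, in alternatives chosen after seeing the data, 4.16% to 5.84% of higher and 4.33% to 20.2% of lower regions were promoters with 1 library left out, against 18.2% of all regions. By that rule the higher genes numbered 9 in IL-4 signalling, 4 in lineage factors, 7 in inflammatory genes, 2 in chemokine and Fc receptors and 1 each in MHC class II, lysosome and cell cycle (1 by TMM too), and 1 gene each was lower in the lists of IL-4 transcription factors, lineage factors, interferon-stimulated genes, pattern receptors, lysosome and cell cycle. With peak centres required within 150 bp, the shares of higher and of all regions were 80.1% and 43.8% (STAT6, 24 h), 57.7% and 31.6% (EGR2, 24 h), 35.1% and 18.9% (PPARg, 24 h), 17.1% and 18.3% (PPARg, basal), 42.8% and 28.5% (CEBPb, 24 h), 30.7% and 30.6% (CEBPb, basal), 68.0% and 59.8% (PU1, 24 h) and 57.4% and 64.5% (PU1, basal, 83.8% of lower), and of all regions 36.3% (STAT6, basal) and 14.2% (EGR2, basal).

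Among the named regions without a call, Stat2 turned direction by TMM (0.018 against -0.12) and DESeq2 (0.015). With 1 library left out, Stat2 (log2 fold changes -0.59 to 0.36), Fos (-0.072 to 0.34) and Usp18 (-0.080 to 0.89) turned. So did Trem2 (-0.29 to 0.47), H2-DMa (-0.43 to 0.22), H2-DMb2 (-0.11 to 0.39) and Ctsb (-0.29 to 0.34). The same held for Ccnd1 (-0.12 to 0.63), E2f2 (-0.26 to 0.073) and Btbd11 (-0.44 to 0.61). Cd36 passed under the block and DESeq2.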
